A study of Mus musculus with 6 samples.

Results

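Glycolysis and lactate transport were followed through 10 genes in small intestinal organoids: Slc2a1, Hk1, Hk2, Pfkp, Pfkl, Pkm, Ldha, Slc16a1, Slc16a3 and Pfkfb3. They were taken by symbol from the 21397 genes of the FPKM table (fragments scaled by the length of the gene and the depth of the library), and all 10 were among the 10551 genes tested, whose FPKM averaged 1 or more. The organoids were grown from intestinal crypts of Fpr2f/f mice, in which the Fpr2 gene is flanked by loxP sites, and both groups carried this allele. The Control group was given 0.1% DMSO and the MMK-1 group was given MMK-1, a peptide agonist of the formyl peptide receptor FPR2, for 5 days, with 3 libraries in each group. The protocol gives the dose as 1 μmol/L, whereas 1 mM is written in the treatment label of the agonist group. Each library is stated to pool organoids of 3 mice, and whether the same mice supplied both groups is not stated, so that p-values measure only the spread between these libraries. Age and sex of the mice are not given in the labels, but the paper states an age range and describes the mice of all its experiments as matched for both.

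Glycolysis splits glucose into pyruvate in the cytosol and yields ATP without oxygen. Hexokinase, phosphofructokinase and pyruvate kinase catalyze its irreversible steps, lactate dehydrogenase turns pyruvate into lactate while restoring NAD+, and monocarboxylate transporters move lactate across the membrane together with a proton. In the small intestine, absorptive enterocytes take up dietary glucose through apical and basolateral transporters, and crypt cells and villus cells differ in how much they rely on glycolysis and on mitochondrial respiration.

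Several of these genes are known targets of the transcription factors HIF-1 and MYC, whose DNA-binding sites contain ACGTG (the core of the hypoxia response element) and an E-box. The 250 bases before each annotated start site in RefSeq (GRCm38.p6) were searched on both strands for ACGTG, and separately for the E-box CACGTG, which always holds the shorter motif as well. The core motif was found in 7 of the 10 genes (Hk2, Ldha, Pfkfb3, Pkm, Slc16a1, Slc16a3 and Slc2a1), compared with 18.49% of 27025 genes and 26.27% of the 8443 tested genes with a window. The E-box was found in 3 of the 10 (Ldha, Pfkfb3 and Slc16a1), compared with 10.56% of the tested genes. A gene was counted if any of its windows matched. By window, ACGTG was found in 8 of the 14 windows of the 10 genes, compared with 16.57% of all windows. These shares were not matched for GC content or for the number of windows per gene. The windows of 4 genes are shown here because they include the gene with the largest change, the glucose transporter and the monocarboxylate transporter with an E-box, beside a phosphofructokinase without a match. The capitals mark ACGTG on either strand, and each sequence runs 5′ to 3′ on the strand of the gene.
Hk2, chr6:82774455-82774704, minus strand: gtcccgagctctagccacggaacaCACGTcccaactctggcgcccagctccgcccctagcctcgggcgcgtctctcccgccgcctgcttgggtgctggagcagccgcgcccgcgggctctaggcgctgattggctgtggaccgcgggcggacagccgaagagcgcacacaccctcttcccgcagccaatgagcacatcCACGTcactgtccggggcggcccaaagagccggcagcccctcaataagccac
Slc2a1, chr4:119108495-119108744, plus strand: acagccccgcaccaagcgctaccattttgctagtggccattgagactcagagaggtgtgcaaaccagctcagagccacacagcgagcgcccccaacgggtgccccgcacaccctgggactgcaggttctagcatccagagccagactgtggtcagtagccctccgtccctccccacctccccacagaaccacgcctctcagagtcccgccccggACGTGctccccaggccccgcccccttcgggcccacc
Slc16a1, chr3:104638414-104638663, plus strand: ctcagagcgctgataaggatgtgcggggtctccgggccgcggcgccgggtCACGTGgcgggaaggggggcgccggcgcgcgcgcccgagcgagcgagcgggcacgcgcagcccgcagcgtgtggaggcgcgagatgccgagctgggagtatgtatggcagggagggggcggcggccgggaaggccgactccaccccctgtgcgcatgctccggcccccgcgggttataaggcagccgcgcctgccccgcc
Pfkl, chr10:78009808-78010057, minus strand: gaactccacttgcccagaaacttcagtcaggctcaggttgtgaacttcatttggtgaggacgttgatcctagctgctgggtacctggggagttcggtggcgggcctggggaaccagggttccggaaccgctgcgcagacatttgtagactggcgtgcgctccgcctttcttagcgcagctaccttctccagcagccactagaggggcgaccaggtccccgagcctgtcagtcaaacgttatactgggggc
The Hk2 window held 2 matches, the nearer of them 52 to 48 bases before the start. In Slc2a1 the single match lay 36 to 32 bases before the start, and in Slc16a1 the E-box lay 200 to 195 bases before it. These matches describe the letters of the windows, and binding was not measured.

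MMK-1 upregulated all 10 genes, although Pfkp and Pfkfb3 lost the call when the libraries were scaled in other ways. In limma on log2(FPKM + 1), each was higher with an adjusted p (Benjamini-Hochberg) no larger than 0.05. By the same rule 48.5% of all genes tested were higher and 24.7% were lower, or 73.2% in either direction. None of the 10 genes had values that overlapped between the groups, which held for 76.8% of all genes tested and for 50.5% in the upward direction. The log2 fold changes ran from 0.16 in Pfkp to 1.31 in Hk2, with a median of 0.70 compared with 0.13 over all genes tested. Slc2a1, Hk1, Hk2 and Slc16a3 passed a fold change of 2 on this scale, as 3.39% of all genes did in the upward and 3.65% in the downward direction. An exact permutation test of any single gene could not go below p = 0.1 with 3 libraries per group, and all 10 had that value. The lower bound of the 95% confidence interval was above the median of all genes for each gene except Pfkp and Pfkfb3.

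**Figure D1:**
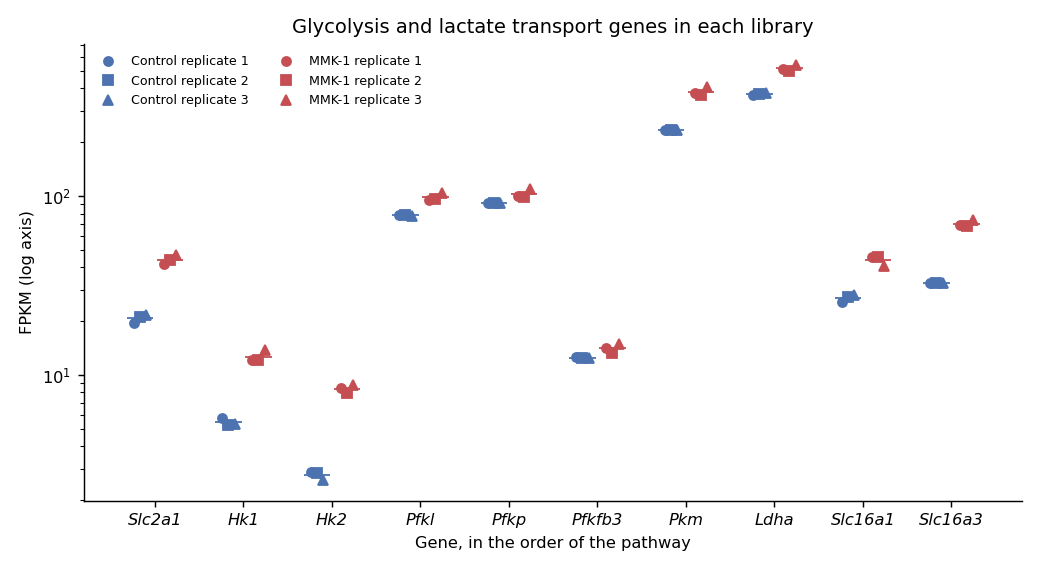
FPKM of the 10 genes in each of the 6 libraries on a log axis, with Control libraries in blue, MMK-1 libraries in red and a line at each group's mean. The MMK-1 points lie above the Control points for every gene, by the smallest margin in Pfkp and Pfkfb3.

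Slc2a1 (NCBI gene 20525, chr4:119108745-119137330 on GRCm38) encodes GLUT1, the glucose transporter of many proliferating cells. Its FPKM was 19.5, 21.2 and 21.5 in Control and 41.9, 43.8 and 47.1 in MMK-1 libraries. The groups were clearly apart, with means of 20.7 ± 1.10 and 44.3 ± 2.60 (SD, n = 3 each). This corresponds to a log2 fold change of 1.06 (SE 0.057; limma adjusted p = 6.2e-07). The other glucose carriers of the list moved mostly the other way. Of its 6 tested genes, 5 were lower and 1 was higher, beside 24.7% and 48.5% of all genes, and the median on the log2 scale was -0.69. With TMM scaling 5 were lower and 1 was higher, beside 36.6% and 35.3% of all genes, and the median was -0.84. Slc2a2, the basolateral GLUT2 of enterocytes, fell from 125.7 ± 2.54 to 64.9 ± 2.06 FPKM, and Slc5a1, the apical sodium-glucose cotransporter SGLT1, fell from 467 ± 3.48 to 344 ± 12.5 FPKM. Slc2a7 fell from 20.8 ± 0.559 to 3.86 ± 0.204 FPKM and Slc2a9, a urate and hexose carrier, from 10.7 ± 0.174 to 3.71 ± 0.438 FPKM, and these were the 2 genes past a 2-fold decrease on the FPKM as deposited. Slc2a2 passed it as well with upper-quartile and TMM scaling (log2 fold changes -1.02 and -1.09). Slc2a5, the fructose transporter GLUT5, was the member that rose, with a log2 fold change of 0.24 (limma adjusted p = 0.00087). It shrank to 0.16 with the upper quartile (limma adjusted p = 0.0038) and to 0.09 with TMM (limma adjusted p = 0.043). The ratio of Slc2a1 to Slc2a2 FPKM within a library was 0.165 ± 0.0067 in Control and 0.683 ± 0.060 in MMK-1 libraries and did not overlap between the groups (exact permutation p = 0.1, the smallest possible; adjusted p = 0.1 over 8 ratios).

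Hexokinases phosphorylate glucose on entry and keep it in the cell. Hk2 (NCBI gene 15277, chr6:82725025-82774454), the inducible isoform, had the largest change of the 10 genes. It was measured at 2.89, 2.85 and 2.59 FPKM in Control libraries and at 8.45, 7.91 and 8.79 FPKM in MMK-1 libraries. These values rest on 582 to 650 and on 1707 to 1960 fragments, respectively, so that counting error was small beside the difference. Its log2 fold change was 1.31 (SE 0.058; limma adjusted p = 1.9e-07), and the ratio of the mean FPKM was 3.02, since the pseudocount of 1 lowers the fitted change of genes at this level. Hk1 (NCBI gene 15275, chr10:62268855-62379920), the broadly expressed isoform, was at 5.77, 5.24 and 5.31 FPKM in Control and 12.2, 12.1 and 13.8 FPKM in MMK-1 libraries. Its log2 fold change was 1.09 (SE 0.061; limma adjusted p = 8.0e-07). The ratio of Hk2 to Hk1 within a library went from 0.511 ± 0.029 to 0.661 ± 0.028 without overlap (exact permutation p = 0.1).

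The hexokinase transcripts of these organoids were nevertheless mostly those of Hkdc1, a hexokinase domain protein of epithelia. Hkdc1 fell from 83.9 ± 1.65 to 55.9 ± 1.98 FPKM, a log2 fold change of -0.58 (limma adjusted p = 3.4e-06). Its share of the summed hexokinase FPKM was 90.8% ± 0.26 in Control and 72.3% ± 0.56 in MMK-1 libraries. Over the same libraries the share of Hk1 was 5.89% ± 0.20 and 16.4% ± 0.54, and that of Hk2 was 3.01% ± 0.13 and 10.8% ± 0.21. The summed FPKM of the family was 92.4 ± 2.06 in Control and 77.4 ± 3.34 in MMK-1 libraries. The sum was therefore lower in each MMK-1 library although both Hk1 and Hk2 were higher, and Hk3 was listed at 0 throughout.

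**Figure D2:**
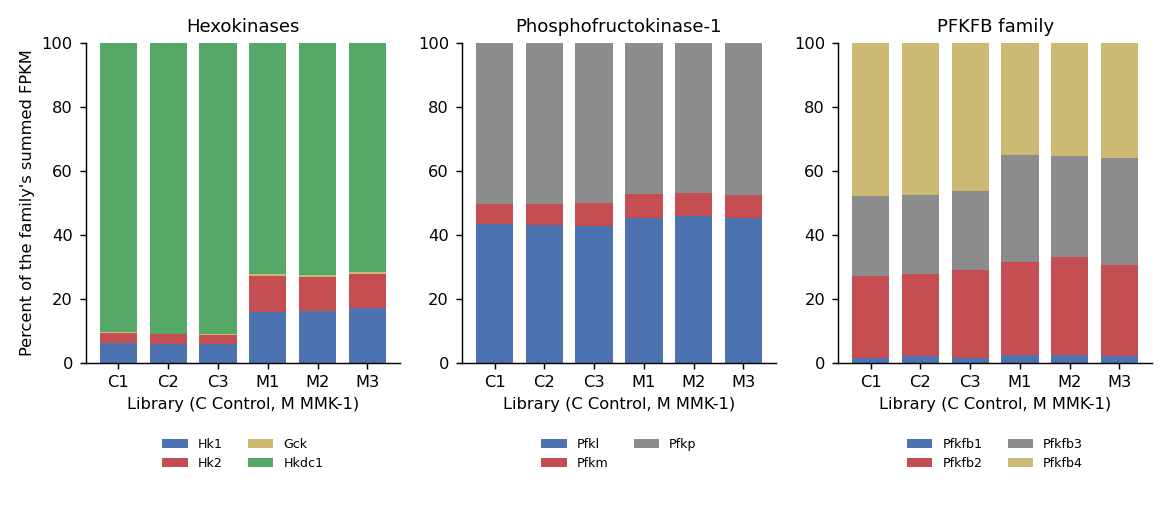
Share of each isoform, in percent of the summed FPKM of its family, in each library for the hexokinases, the phosphofructokinases and the PFKFB enzymes. The Hkdc1 share is near 90.8% in Control and 72.3% in MMK-1 libraries, the Pfkp share is 50.3% and 47.2%, and the Pfkfb3 share goes from 24.9% to 32.8%.

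Phosphofructokinase commits glucose to glycolysis, and its 2 isoforms in the set changed far less than the hexokinases. Pfkp (NCBI gene 56421, chr13:6579874-6649060), the platelet isoform, was at 92.1, 91.9 and 91.4 FPKM in Control and 99.7, 98.7 and 109.7 FPKM in MMK-1 libraries. Its log2 fold change of 0.16 (SE 0.047; limma adjusted p = 0.014) was close to the median of all genes. Pfkl (NCBI gene 18641, chr10:77986947-78009807), the liver isoform, was at 78.8, 78.4 and 78.0 FPKM in Control and 95.5, 96.7 and 104.4 FPKM in MMK-1 libraries. Its log2 fold change was 0.33 (SE 0.044; limma adjusted p = 0.00016). The order of the isoforms was kept in the means, but the ratio of Pfkp to Pfkl went from 1.17 ± 0.0017 to 1.04 ± 0.015, and their ranges overlapped in the MMK-1 group. Pfkm, the muscle isoform, was at 12.1 ± 0.783 and 15.9 ± 0.920 FPKM and rose with a log2 fold change of 0.36 (limma adjusted p = 0.00063).

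Pfkfb3 (NCBI gene 170768, chr2:11471430-11554071) encodes an enzyme that makes the allosteric activator of phosphofructokinase. Its FPKM was 12.6, 12.5 and 12.4 in Control and 14.1, 13.4 and 14.96 in MMK-1 libraries. The groups did not overlap, but the log2 fold change of 0.17 (SE 0.049; limma adjusted p = 0.014) was again near that of the median gene. Pfkfb4, the most abundant gene of the family in both groups, fell from 23.8 ± 0.461 to 15.3 ± 0.770 FPKM (log2 fold change -0.61, limma adjusted p = 5.9e-06). Pfkfb3 made up 24.9% ± 0.13 of the summed FPKM of the family in Control and 32.8% ± 1.15 in MMK-1 libraries, and the sum went from 50.3 ± 0.100 to 43.1 ± 1.42 FPKM. Tigar, which lowers the same activator, rose with a log2 fold change of 0.40 (limma adjusted p = 0.00036).

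Pkm (NCBI gene 18746, chr9:59656576-59679372) encodes the pyruvate kinases PKM1 and PKM2, which values per gene cannot separate. It was at 234.2, 235.1 and 234.9 FPKM in Control and 375, 369 and 408 FPKM in MMK-1 libraries. The Control libraries were almost equal, and the MMK-1 mean of 384 ± 20.8 exceeded their mean by 1.64-fold, with a log2 fold change of 0.71 (SE 0.045; limma adjusted p = 1.7e-06). Pklr, which encodes the liver and red cell pyruvate kinase, was the more abundant gene in both groups and rose as well, from 325 ± 3.95 to 578 ± 23.9 FPKM (log2 fold change 0.83, limma adjusted p = 3.9e-07). The ratio of Pkm to Pklr was 0.723 ± 0.010 in Control and 0.664 ± 0.0086 in MMK-1 libraries, a small shift without overlap (exact permutation p = 0.1).

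Ldha (NCBI gene 16828, chr7:46842274-46855627) encodes the A subunit of lactate dehydrogenase and was the most abundant of the 10 genes in both groups. Its FPKM was 367, 374 and 376 in Control and 514, 502 and 543 in MMK-1 libraries. The means were 372 ± 4.53 and 520 ± 20.8, a 1.39-fold increase with a log2 fold change of 0.48 (SE 0.041; limma adjusted p = 9.9e-06). Ldhb, which encodes the B subunit, was hardly detected, at 16 to 34 fragments per Control library and 8 to 10 per MMK-1 library, and it was below the level tested. Ldhd, a D-lactate dehydrogenase of mitochondria, fell with a log2 fold change of -0.67 (limma adjusted p = 5.7e-05). Gene-level values of Ldha, Pkm and Gapdh may share reads with processed pseudogenes, and how such reads were counted is not given in the sources used here.

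Lactate leaves or enters the cell through the monocarboxylate transporters MCT1 and MCT4. Slc16a3 (NCBI gene 80879, chr11:120948484-120959000), which encodes MCT4, the exporter of glycolytic cells, was at 32.8, 32.6 and 32.8 FPKM in Control and 69.0, 67.8 and 73.4 FPKM in MMK-1 libraries. Its log2 fold change of 1.07 (SE 0.042) had the smallest adjusted p of the 10 genes (limma, 1.1e-07). Slc16a1 (NCBI gene 20501, chr3:104638664-104658462), which encodes MCT1, was at 25.5, 27.3 and 27.9 FPKM in Control and 45.6, 45.6 and 40.9 FPKM in MMK-1 libraries. Its log2 fold change was 0.69 (SE 0.056; limma adjusted p = 7.5e-06), and it was the gene of the 10 that was lowest in MMK-1 replicate 3 among the MMK-1 libraries. The ratio of Slc16a1 to Slc16a3 within a library was 0.822 ± 0.039 in Control and 0.630 ± 0.063 in MMK-1 libraries, again without overlap (exact permutation p = 0.1). Bsg, which encodes basigin, the chaperone that both transporters need at the membrane, was at 482 ± 8.29 and 490 ± 24.5 FPKM with a log2 fold change of 0.02 (limma adjusted p = 0.67), but it was called lower with TMM scaling (log2 fold change -0.13, limma adjusted p = 0.010).

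**Figure D3:**
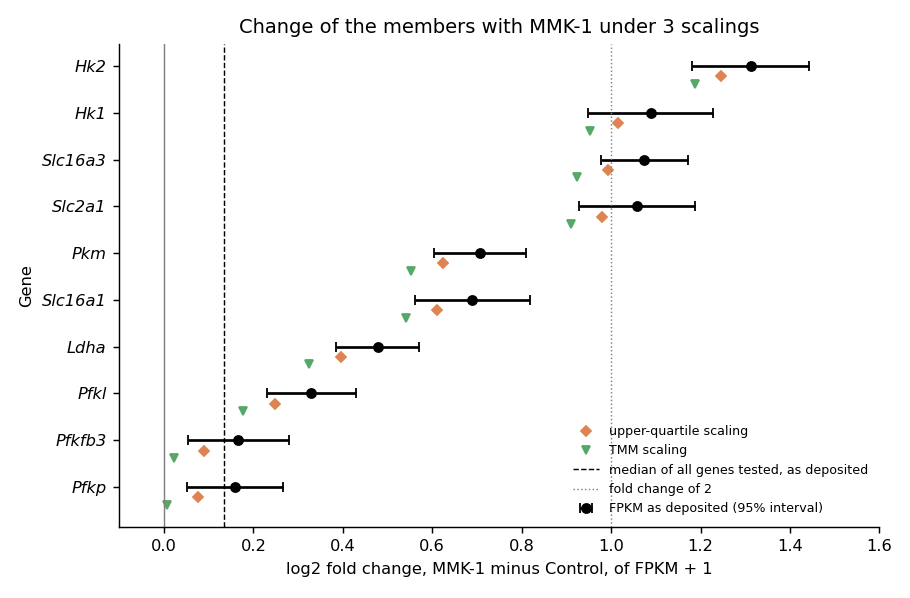
Log2 fold change of MMK-1 against Control for the 10 genes with 95% confidence intervals from limma, and the value of the same gene after upper-quartile scaling (diamonds) and TMM scaling (triangles). The dashed line is the median of all genes tested, 0.13, and the dotted line is a fold change of 2, which Hk2, Hk1, Slc16a3 and Slc2a1 pass on the FPKM as deposited.

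In the Control group the order of levels per length was Ldha, Pkm, Pfkp, Pfkl, Slc16a3, Slc16a1, Slc2a1, Pfkfb3, Hk1 and Hk2, with no overlap between neighbors. In the MMK-1 group Slc2a1 and Slc16a1 changed places, but their ranges overlapped, as did those of Pfkp with Pfkl and of Pfkfb3 with Hk1. The KEGG annotation in the table places 6 of the 10 genes in glycolysis and gluconeogenesis, 7 in HIF-1 signaling and 8 in central carbon metabolism in cancer.

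These fold changes depend on how the libraries are scaled. With upper-quartile scaling the median over all genes was 0.06 on the log2 scale, and 8 of the 10 genes were higher beside 41.7% of all genes, while 31.2% were lower. With TMM (trimmed mean of M-values) the median of all genes was 0.0011, and 8 of the 10 were higher beside 35.3% of all genes, while 36.6% were lower. Pfkp and Pfkfb3 were the genes that no longer passed. Pfkp had a log2 fold change of 0.08 (limma adjusted p = 0.11) with the upper quartile and of 0.01 (limma adjusted p = 0.89) with TMM, and Pfkfb3 had 0.09 (limma adjusted p = 0.096) and 0.02 (limma adjusted p = 0.63). Hk1 and Hk2 stayed past a fold change of 2 with the upper quartile, beside 2.6% of all genes, and Hk2 did with TMM, beside 2.18%.

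Of the other enzymes of glycolysis, 15 were tested, of which 10 were higher and 1 was lower, beside 48.5% and 24.7% of all genes, and the median change was 0.32 on the log2 scale. With TMM scaling 10 were higher, beside 35.3% of all genes, and 3 were lower, beside 36.6%, and the median was 0.16. Pgam1, the phosphoglycerate mutase, rose from 184.9 ± 2.20 to 265 ± 10.4 FPKM and Gpi1, glucose phosphate isomerase, from 909 ± 2.05 to 1131 ± 48.9 FPKM. Eno3, the muscle enolase, rose from 1.06 ± 0.151 to 2.08 ± 0.254 FPKM. Hkdc1 was the enzyme that fell on the FPKM as deposited and under both scalings. Aldoc, an aldolase, and Bpgm, a bisphosphoglycerate mutase, are named here after their values were seen. Aldoc was lower after scaling, with log2 fold changes of -0.17 by the upper quartile (limma adjusted p = 0.0058) and -0.24 by TMM (limma adjusted p = 0.00079), and so was Bpgm by TMM, with -0.17 (limma adjusted p = 0.0068). Gapdh spread widely within both groups, which overlapped, at 295 ± 41.8 and 286 ± 32.0 FPKM (log2 fold change -0.04, limma adjusted p = 0.74).

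Lactate and pyruvate partners include the genes of pyruvate entry into mitochondria. In this list 7 of 13 tested genes were higher and 3 were lower, shares near the 48.5% and 24.7% of all genes, and with TMM scaling 4 were higher and 6 lower, beside 35.3% and 36.6%. Pdhb and Dlat, subunits of the pyruvate dehydrogenase complex, rose with log2 fold changes of 0.60 and 0.45, and so did Pdk1, the kinase that inhibits the complex, with 0.54, whereas Pdk2 fell with -0.22. Other genes of the complex did not follow under every scaling. Dld and Pdhx rose with 0.26 and 0.24 but did not pass with TMM (limma adjusted p = 0.20 and 0.22). Pdha1 did not pass (-0.08, limma adjusted p = 0.22) and was called lower with TMM (-0.23, limma adjusted p = 0.01). Of the mitochondrial pyruvate carrier, Mpc1 fell from 31.9 ± 1.198 to 24.5 ± 0.463 FPKM and Mpc2 rose from 75.9 ± 1.62 to 87.3 ± 4.11 FPKM, although Mpc2 did not pass with TMM scaling (log2 fold change 0.05, limma adjusted p = 0.30). The ratio of Ldha to the sum of both carrier genes was 3.46 ± 0.051 in Control and 4.65 ± 0.041 in MMK-1 libraries (exact permutation p = 0.1).

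In gluconeogenesis, 2 of 7 tested genes were higher and 4 were lower, beside 48.5% and 24.7% of all genes. With TMM scaling 2 were higher and 5 were lower, beside 35.3% and 36.6%. Pck2 and Fbp1 rose with log2 fold changes of 0.83 and 0.59, whereas Pcx, pyruvate carboxylase, Slc37a4, the glucose phosphate translocase, and Fbp2 fell with -0.91, -0.70 and -0.52. In the pentose phosphate pathway, which branches from glycolysis, 6 of 8 were higher and 2 were lower, beside 48.5% and 24.7% of all genes, and with TMM scaling 4 were higher and 2 lower, beside 35.3% and 36.6%. Rpia, Taldo1 and H6pd rose with log2 fold changes of 0.53, 0.49 and 0.46, and Tkt and Pgd fell with -0.18 and -0.16.

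In the list of HIF, MYC and MLX regulators, 8 of 16 genes were higher and 4 were lower, which is near the 48.5% and 24.7% of all genes. With TMM scaling 7 were higher and 6 lower, near the 35.3% and 36.6% of all genes, and the median of 0.13 turned to -0.01. Hif1a, the oxygen-regulated subunit of HIF-1, was at 16.6, 17.3 and 17.0 FPKM in Control and 33.0, 32.7 and 23.7 FPKM in MMK-1 libraries. It rose with a log2 fold change of 0.76 (limma adjusted p = 0.00027), with MMK-1 replicate 3 lower than the other two, and its activity is set mainly by protein stability, which RNA does not show. Epas1, which encodes HIF-2 alpha, fell with -0.59, Hif3a, which encodes another alpha subunit, rose with 0.66, and Egln2, a prolyl hydroxylase of HIF, fell with -0.14. Egln1 and Egln3, also prolyl hydroxylases of HIF, went the other way, with log2 fold changes of 0.28 and 0.57. Both stayed higher with TMM scaling (0.13 and 0.42, limma adjusted p = 0.011 and 2.1e-05). Myc rose from 17.3 ± 0.221 to 21.6 ± 1.29 FPKM (log2 fold change 0.30, limma adjusted p = 0.00058), and Mycl, a MYC family gene, rose from 2.35 ± 0.103 to 6.70 ± 0.464 FPKM. Mlx, the partner of the glucose-sensing factors of the MLX network, fell with -0.39, and Txnip, an inhibitor of glucose uptake, rose with 0.27. Of 13 HIF targets outside glycolysis, 12 were higher beside 48.5% of all genes, 5 of them past a fold change of 2 beside 3.39%, and Ndrg1 fell with -0.42. With TMM scaling 11 were higher, beside 35.3% of all genes, and of the 5 only Ero1a, Ddit4 and Ankrd37 stayed past a fold change of 2, beside 2.18%. Ero1a, an oxidase of the endoplasmic reticulum, rose from 97.4 ± 1.01 to 281 ± 17.0 FPKM, Ddit4, an inhibitor of mTORC1, from 44.6 ± 1.12 to 126.5 ± 8.29 FPKM and Ankrd37 from 28.2 ± 0.940 to 64.8 ± 3.197 FPKM.

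**Figure D4:**
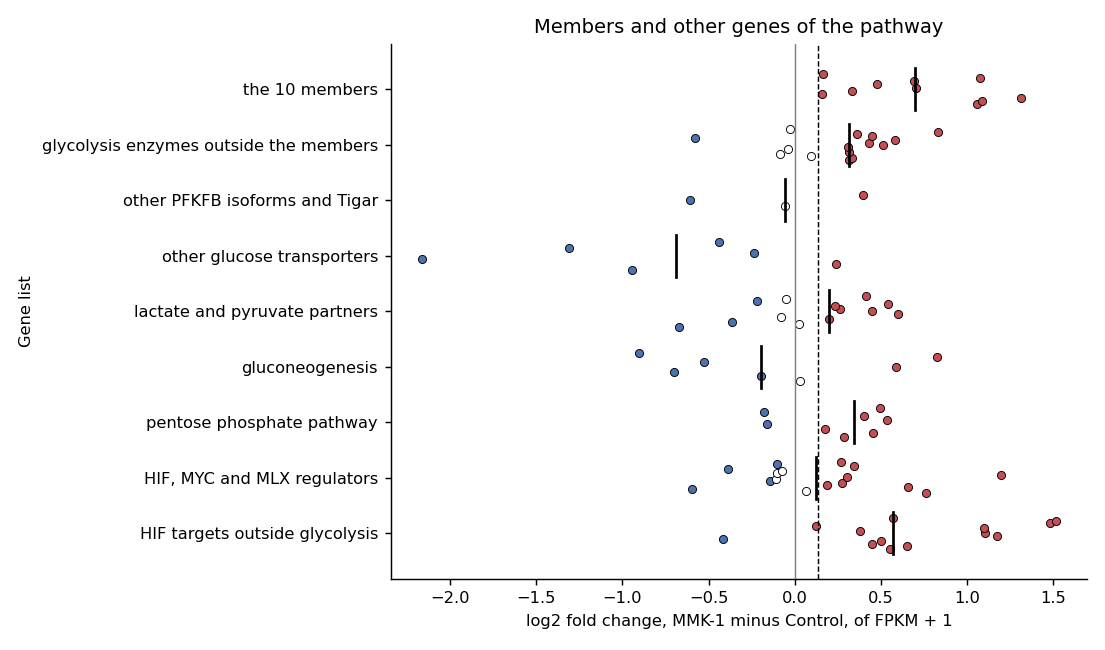
Log2 fold change of MMK-1 against Control for each tested gene of the 10 members and of the 8 other lists, with filled points at a limma adjusted p of at most 0.05, a bar at the median of each list and a dashed line at the median of all genes. The members have the highest median, 0.70, and the other glucose transporters the lowest, -0.69.

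The cell markers of these libraries moved as well, and their counts stand beside 48.5% of all genes higher and 24.7% lower as deposited, and 35.3% and 36.6% with TMM scaling. Markers of crypt stem and cycling cells were higher in 8 of 8 genes, with a summed FPKM of 101 to 102 in Control and 420 to 433 in MMK-1 libraries, and Paneth cell markers in 6 of 6, at 392 to 434 and 1275 to 1403. Enterocyte markers were lower in 9 of 10 genes and higher in 1, at 9693 to 9768 and 5185 to 5598. Fabp1 was the enterocyte marker that was higher (log2 fold change 0.17, limma adjusted p = 0.014), and it did not pass with TMM scaling (0.02, limma adjusted p = 0.70). Enteroendocrine markers were higher in 4 of 6 genes, at 294 to 310 and 419 to 428, and goblet cell markers were higher in 4 and lower in 2 of 6 genes, or 2 and 2 with TMM scaling, which is near these shares, at 1375 to 1441 and 1401 to 1527. In bulk samples, fewer cells of a type and less RNA per cell cannot be told apart, and the part of these shifts in the changes of the glycolytic genes was not tested. Of 6 epithelial markers, all well expressed, 2 were higher (Krt18 and Cdh1) and 3 were lower (Vil1, Krt19 and Krt8), or 1 and 4 with TMM scaling, where Cdh1 did not pass (log2 fold change 0.01, limma adjusted p = 0.71), and their summed FPKM was 3279 to 3311 in Control and 2313 to 2496 in MMK-1 libraries. Epcam was at 377 to 415 FPKM, with a log2 fold change of -0.0044 (limma adjusted p = 0.93) that became -0.16 (limma adjusted p = 0.0045) with TMM scaling. The summed FPKM of immune markers was 6.19 to 6.74 in Control and 2.46 to 3.30 in MMK-1 libraries. This sum came mostly from Cd68 and Itgam, the 2 tested, which were both lower (limma adjusted p = 0.00015 and 9.2e-06). The leukocyte marker Ptprc and the T cell marker Cd3e were below 0.02, and the macrophage markers Adgre1 and Csf1r were at most 0.00831 and 0.159 FPKM. Which cells the Cd68 and Itgam reads came from was not tested. The summed FPKM of fibroblast and muscle markers was 1.202 to 1.223 in Control and 0.356 to 0.474 in MMK-1 libraries, mostly from Pdgfrb. The libraries held 35512739 to 37537463 fragments. MMK-1 replicate 3 stood apart on the second principal component, which held 4.48% of the variance against 92.4% for the first, and 9 of the 10 genes were highest in it, as were 60.7% of all genes tested. Without this library all 10 genes were still higher in limma, and the same number, 4, passed a fold change of 2, with log2 fold changes of 0.11 in Pfkp to 1.28 in Hk2.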

How the data were processed

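The authors deposited FPKM values of 21397 genes for 3 Control and 3 MMK-1 libraries. The submitters' processing notes name HISAT2, HTSeq, DESeq2 and R 3.2.0 and the mm10 build, without their roles, and the annotation is not given in the sources used here. Fragments per gene and the library totals were recovered from the steps of the FPKM values for all 20676 genes above 0, and they cover counting error only. Coordinates and promoters come from RefSeq (GRCm38.p6), matched by NCBI gene number.

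The test was limma 3.58.1 (trend) in R 4.3.3 and took log2(FPKM + 1) as its input, without a replicate block, for the 10551 genes whose FPKM averaged 1 or more. Fold changes on this scale understate those of low genes. Genes were called by Benjamini-Hochberg adjustment at 0.05, or by a 2-fold change together with an unadjusted p no larger than 0.05. Permutation tests were exact and two-sided. Upper-quartile and TMM factors, TPM, limma-voom on recovered fragments and a loess correction for GC content (span 0.3) were alternatives. Scripts, checked on simulated data, ran in Python 3.11.15 (scipy 1.17.1, pandas 2.3.3, numpy 2.4.6, matplotlib 3.10.9).

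The 10 genes and all lists were chosen with earlier results of these data known. Named are the 10 genes, the 3 genes of each pathway list with the largest called change in each direction, and, whatever their values, Gapdh, Gpi1, Ldhb, Bsg, Mpc1, Mpc2, Pfkm, Pklr, Hkdc1, Slc2a2, Slc5a1, Hif1a, Myc and Txnip. Isoforms are named with their ratios or shares, and markers only beside a result. Aldoc, Bpgm, Egln1, Egln3, Pdha1, Dld and Pdhx were added after their values were seen.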

Additional observations from a re-analysis of the deposited data

How the results depend on the processing

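Pfkp and Pfkfb3 lost the call with upper-quartile and TMM scaling, as given above. All 10 genes passed in limma without the filter on low values, with a pseudocount of 0.1, with TPM, limma-voom, GC correction or the replicate block, and with each replicate left out. Of the 4 genes past a fold change of 2, 2 remained with the upper quartile and 1 with TMM. All genes called higher and lower numbered 5118 and 2606, against 4395 and 3291 with the upper quartile and 3724 and 3865 with TMM. At a fold change of 2, 358 genes were higher, compared with 230 with TMM, 676 with a pseudocount of 0.1, 558 with TPM and 727 with limma-voom. A fold change of 1.5 gave 1502 higher and 855 lower genes, and 13 higher and 8 lower among the other pathway genes, instead of 6 and 2. With TMM, 4 other pathway genes were lower at a fold change of 2. The TMM factors were 0.944 to 0.951 in Control and 1.04 to 1.07 in MMK-1 libraries, and what set them apart was not tested. Leaving out each replicate in turn gave 4702 to 5186 higher and 2365 to 2947 lower genes, and 336 to 434 and 369 to 393 at a fold change of 2. No pairing by replicate number was seen. The deviations of libraries with the same number correlated at 0.025, -0.040 and 0.028, and 2 of 6 libraries correlated best with their own number. Low correlations can also arise where libraries share mice, so whether the numbers pair the libraries stays unknown. The replicate block gave 5024 higher and 2543 lower genes and all 10 members higher. With 3 libraries per group, 0.1 was the smallest p of an exact permutation test, so that the ratios between genes could not pass. At these depths the 10 genes rested on at least 582 fragments per library, whereas Ldhb was too low to test.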
